A study of Mus musculus with 8 samples.

Results

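The keratin-associated protein (Krtap) genes encode the proteins that surround the keratin filaments of hair. They were chosen by symbol, as every gene named Krtap followed by a number in the deposited tables of JunB cKO and wild type mice, with 1 locus per symbol. This gave 59 loci of 27 subfamilies in all, of which 54 were listed among 26457 loci for unperturbed libraries, 57 among 47990 for hair plucking and 57 among 46726 for wounds. JunB is a subunit of the AP-1 transcription factor. In the JunB cKO mice a Cre recombinase under the K14 promoter, active in basal cells of the epidermis and of the hair follicle, deletes floxed JunB alleles, whereas the dermis keeps the gene. All mice carry the strain name C57BL/6, and the labels give the genotypes as JunB +/+ and JunB -/- and no age. Of the 8 libraries, 1 per genotype is of untreated keratinocytes by its label, 1 per genotype is of skin taken 4 days after hair depilation, and 2 per genotype are of skin taken 30 days after wounding. The depilated pair also carries keratinocyte as its tissue, against skin biopsy in the title. RNA of several mice was pooled before a library was made, and each table holds 1 FPKM value (fragments scaled to transcript length and to the number of mapped reads) per genotype and gene, the wound table included. Hence, no spread between mice or libraries can be given, and no difference was tested.

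A hair shaft is built by cells that leave the matrix of a growing follicle, fill with hair keratins and then with keratin-associated proteins, and die. The proteins are linked to the keratins and to each other by disulfide bonds, and their genes are switched on at different heights of the cortex and cuticle of the shaft while the follicle is in its growth phase. Plucking of hairs starts a new growth phase in resting follicles.

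In each of the 57 members with a coding sequence in the annotation (GENCODE release M21, GRCm38), the transcript with the longest coding sequence has 1 exon. Their genes lie in a few clusters, with 26 on chromosome 16, 23 on chromosome 11, 5 on chromosome 7, 3 on chromosome 10 and 2 on chromosome 1. By the composition of the translated sequences, 19 are high glycine-tyrosine proteins (glycine and tyrosine at least 35% of residues), 17 are ultra-high sulfur proteins (cysteine above 30%) and 21 are high sulfur proteins (the rest). The high glycine-tyrosine proteins of chromosome 16 are short. Krtap19-5 has 62 residues with 62.9% glycine and tyrosine, and Krtap6-1 has 78 residues with 69.2%. By contrast, Krtap4-9, an ultra-high sulfur protein, has 244 residues with 38.9% cysteine. Krtap5-2, Krtap5-3, Krtap28-10 and Krtap28-13 pass both limits and were counted as high glycine-tyrosine, whereas Krtap17-1 with 34.9% and Krtap7-1 with 29.9% glycine and tyrosine lie just outside that limit.

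Stretches in front of the genes were read from RefSeq promoters (GRCm38.p6), which hold 51 members. Each promoter runs from 250 bases before to 50 bases after the start, so that some matches lie outside the 150 bases printed below. The TATA box letters TATAAA occurred on either strand in 42 of these 51 promoters (82.4%), compared to 13.6% of all 32851 promoters of the same length. Within the window from 40 to 20 bases before the start, they were found in 31 members (60.8%), compared to 2.5% of all promoters. The AP-1 letters TGANTCA occurred in 10 members (19.6%), compared to 7.81% of all promoters. Among the members below wild type by at least 2-fold in wounds, 6 of 15 promoters held TGANTCA, and among those without a 2-fold difference 4 of 32. Of those at least 2-fold above wild type in wounds, 0 of 4 held these letters. After plucking, the letters were found in 5 of 30 promoters of members at least 2-fold above wild type and in 5 of 20 of those without such a difference. The promoter of the 1 lower member held none. A match describes letters only and no binding was measured. Only exact letters were counted, so that similar ones, such as tatataag in the line of Krtap15, are left out. A member without a match is therefore not shown to lack a TATA box. Matches of TATAAA on opposite strands can overlap, as in Krtap1-5. The following lines give the 150 bases before the start, 5′ to 3′ on the strand of the gene, with TATAAA and TGANTCA of either strand in capitals. They are shown for the most abundant member of chromosome 11, for the most abundant member of all in wounds, for the member with the highest difference in wounds, for the member that was lower by 2-fold after plucking, for a near-identical pair with both motifs and for 1 abundant member without an exact match of either.
Krtap1-5, GRCm38 chr11:99581017-99581166, minus strand: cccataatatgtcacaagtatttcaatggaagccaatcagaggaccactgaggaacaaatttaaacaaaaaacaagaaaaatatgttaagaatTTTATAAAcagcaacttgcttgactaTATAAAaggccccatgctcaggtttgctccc
Krtap19-5, GRCm38 chr16:88896450-88896599, minus strand: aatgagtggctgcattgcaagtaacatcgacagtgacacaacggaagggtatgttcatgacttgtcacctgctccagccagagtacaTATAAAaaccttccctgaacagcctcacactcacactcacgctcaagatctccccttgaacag
Krtap20-2, GRCm38 chr16:89205711-89205860, plus strand: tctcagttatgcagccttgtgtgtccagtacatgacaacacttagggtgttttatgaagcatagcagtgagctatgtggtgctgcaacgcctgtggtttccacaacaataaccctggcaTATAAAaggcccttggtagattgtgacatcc
Krtap17-1, GRCm38 chr11:99993995-99994144, minus strand: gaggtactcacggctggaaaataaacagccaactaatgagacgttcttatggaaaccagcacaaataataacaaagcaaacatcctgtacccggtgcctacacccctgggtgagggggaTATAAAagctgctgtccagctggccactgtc
Krtap31-1, GRCm38 chr11:99907770-99907919, plus strand: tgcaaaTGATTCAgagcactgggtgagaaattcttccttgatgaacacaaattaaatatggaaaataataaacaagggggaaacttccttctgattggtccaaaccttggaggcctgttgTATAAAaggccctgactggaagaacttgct
Krtap31-2, GRCm38 chr11:99936141-99936290, plus strand: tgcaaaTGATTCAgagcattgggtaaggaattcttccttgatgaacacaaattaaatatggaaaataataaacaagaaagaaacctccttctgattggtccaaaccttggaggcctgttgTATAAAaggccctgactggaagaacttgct
Krtap15, GRCm38 chr16:88828859-88829008, plus strand: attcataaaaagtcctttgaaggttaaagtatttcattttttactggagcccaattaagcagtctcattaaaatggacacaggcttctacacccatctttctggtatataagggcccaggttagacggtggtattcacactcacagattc
The lines of Krtap31-1 and Krtap31-2 differ at 7 of 150 bases, so that their motif matches are not independent of each other.

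Members of a subfamily also share coding sequence, which bears on how reads of 75 bases can be assigned to them. Of the members with an annotated transcript, 35 share at least 1 stretch of 75 bases with another annotated gene and 23 share none. In 10 members more than 25% of all such stretches are shared, for example 70.9% of Krtap4-13, mostly with the predicted gene Gm11554, and 39.1% of Krtap3-3 with Krtap3-2. The following stretch opens the coding sequence of Krtap4-8 and occurs in that of Krtap4-9 as well, so that a read from it fits both genes.
Krtap4-8 and Krtap4-9, first 75 coding bases of Krtap4-8: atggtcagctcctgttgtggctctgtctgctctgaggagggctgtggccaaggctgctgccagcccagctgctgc
How the authors' counting divided such reads is not given in the sources used here, and the values of these members are uncertain to that degree.

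Junb itself was reduced in JunB cKO in every pair, at 31.4 against 267.8 FPKM in the unperturbed libraries, 11.7 against 40.8 FPKM after plucking and 15.4 against 33.4 FPKM in wounds. The unperturbed libraries held epidermal markers at high levels, with Krt10 at 3320 FPKM in wild type compared to 4889 FPKM in JunB cKO, and fibroblast markers near 0, with Dcn at 2.81 and 4.60 FPKM. The plucked and the wound pairs held both, as whole skin does, with Col3a1 at 2559 and 535.1 FPKM after plucking and at 5055 and 7735 FPKM in wounds. The tables were normalized separately, so that levels are set side by side between tables only as orders of size. From receptor genes that stand at the value of 1 read, 1 FPKM per kilobase of transcript stood for about 13.3 reads in unperturbed wild type and 3.92 in unperturbed JunB cKO, for 34.1 and 31.7 in wounds, and for 12.9 and 10.1 after plucking. These values are rough, since only 2 receptor loci gave that of JunB cKO wounds, and 1 and 3 gave those of wild type and JunB cKO after plucking. In plucked wild type, the estimated reads of members were 0, 1.79 for Krtap5-3 or at least 11.7, with none in between. The value from that 1 locus may thus overstate the reads of plucked wild type by far, which was not tested. In every table a few ribosomal protein genes, which all cells use, were listed at 0, so that a Krtap gene at 0 is called listed at 0 and not absent.

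In wounds, Krtap genes reached levels of over 1000 FPKM in both genotypes, and most stood lower in JunB cKO. Their FPKM values summed to 15639 in wild type against 10699 in JunB cKO. Of the 57 members, 51 were below and 6 above wild type, with a median log2 difference of -0.55. Here and in the following, a difference is log2((JunB cKO + 1)/(wild type + 1)) of FPKM values, and members are counted as higher or lower from a difference of 1 or -1, which is 2-fold. Where a pair of values is joined by "and", wild type comes first. By this limit 16 members were lower and 4 were higher. Of all loci of the wound table, 1.98% were lower and 2.16% were higher, and among loci with at least 1 FPKM in either genotype, as 56 members had, these shares were 5.19% and 5.68%. With the 1.5-fold limit 28 members were lower, and with the 4-fold limit 4. The order of levels was similar in both genotypes, with a Spearman correlation of 0.951 over the 57 members, which are points from the same 2 columns. In bulk skin, fewer hair-forming cells and less RNA per cell cannot be told apart.

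**Figure D1:**
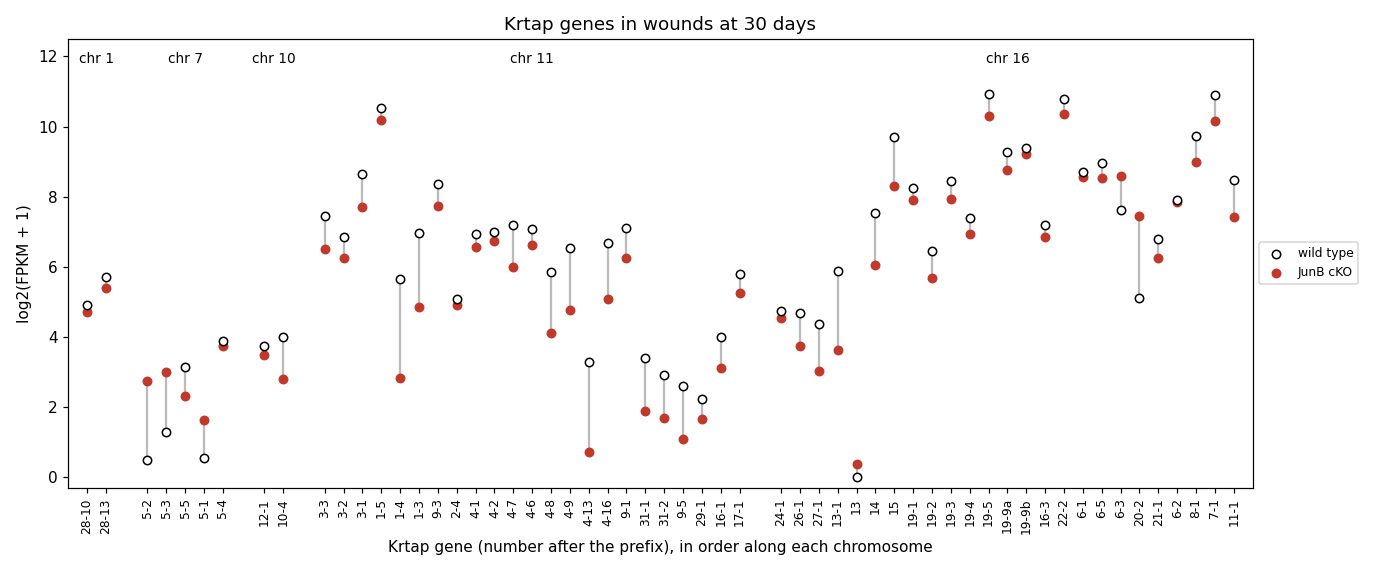
Level of each Krtap gene in wounds as log2(FPKM + 1), wild type as open circles and JunB cKO as filled circles, in order along each chromosome. All 23 genes on chromosome 11 lie lower in JunB cKO, and Krtap20-2 on chromosome 16 and 3 Krtap5 genes on chromosome 7 lie higher by at least 2-fold.

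High glycine-tyrosine genes held the largest share of Krtap transcripts in wounds, with 50.1% of the summed FPKM in wild type against 57.2% in JunB cKO. Of their 19 genes, none was lower by 2-fold and 3 were higher, with a median difference of -0.32. The 3 were Krtap20-2 and, from chromosome 7, Krtap5-2 and Krtap5-3, which also pass the cysteine limit. The most abundant Krtap gene, Krtap19-5, was at 1941 FPKM in wild type against 1249 FPKM in JunB cKO, a difference of -0.64. Krtap22-2 was at 1751 FPKM in wild type compared to 1304 FPKM in JunB cKO. All 7 Krtap19 genes were below wild type, with differences between -0.75 and -0.17. Krtap19-9b was at 671.6 and 598.3 FPKM and Krtap19-9a, for which no coding sequence is annotated, at 617.0 and 430.9 FPKM. Krtap8-1 was at 840.4 FPKM in wild type against 510.8 FPKM in JunB cKO. Thus, in this class the highest genes were all below wild type, by less than 2-fold.

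Of the 4 Krtap6 genes, 3 were close to their neighbours. Krtap6-5 was at 500.1 and 366.8 FPKM, a difference of -0.45, Krtap6-1 at 418.8 and 376.0 FPKM, a difference of -0.16, and Krtap6-2 at 239.2 and 228.3 FPKM, a difference of -0.07. These 3 genes summed to 1158 FPKM in wild type against 971.1 FPKM in JunB cKO. Krtap6-3 was at 197.5 FPKM in wild type against 385.8 FPKM in JunB cKO, a difference of 0.96, and it shares no stretch of 75 bases with another annotated gene. Krtap20-2, which encodes a glycine- and tyrosine-rich protein of 60 residues, was at 33.2 FPKM in wild type compared to 173.7 FPKM in JunB cKO, a difference of 2.35. By the estimate above, this is about 605 reads against 2940 reads. It also shares no stretch of 75 bases, and it was the only member on chromosome 16 that was at least 2-fold higher.

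The 5 Krtap5 genes of chromosome 7, a subfamily known from the cuticle of the hair shaft, were low in wounds and did not move as a group. Krtap5-2 was at 0.407 FPKM in wild type against 5.71 FPKM in JunB cKO, and Krtap5-3 was at 1.45 and 6.92 FPKM. Krtap5-1 was at 0.470 and 2.06 FPKM. By contrast, Krtap5-5 was at 7.73 FPKM in wild type compared to 3.92 FPKM in JunB cKO, and Krtap5-4 was at 13.8 and 12.3 FPKM. Of their 75-base stretches, 17.0% in Krtap5-2 and 37.2% in Krtap5-1 are shared with predicted genes, compared to 1.95% in Krtap5-3.

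High sulfur genes were lower by at least 2-fold in 8 of 21 cases and higher in 0, with a median difference of -0.93. Krtap7-1 was at 1921 FPKM in wild type against 1136 FPKM in JunB cKO, and Krtap1-5 was at 1476 and 1166 FPKM. Krtap15 was at 838.5 FPKM in wild type compared to 314.9 FPKM in JunB cKO, a difference of -1.41, and the adjacent Krtap14 was at 185.8 and 65.2 FPKM, a difference of -1.50. The annotated genes of these neighbours overlap, and so do their assembled loci in the plucked and wound tables. Krtap13-1 was at 57.7 FPKM in wild type against 11.3 FPKM in JunB cKO, a difference of -2.25. Krtap1-4 showed the lowest difference of all members, -2.83, at 49.6 FPKM in wild type compared to 6.11 FPKM in JunB cKO. Krtap1-5 and Krtap1-4, which are neighbours on chromosome 11, therefore stood far apart, with -0.34 and -2.83. The 3 Krtap3 genes lay close together between -0.94 and -0.62.

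Ultra-high sulfur genes were lower by at least 2-fold in 8 of 16 cases and higher in 1, Krtap5-1, with a median difference of -1.02. The 8 Krtap4 genes were all below wild type, but to different degrees. Krtap4-1, Krtap4-2 and Krtap4-6 were between -0.44 and -0.25, for example Krtap4-6 at 132.9 FPKM in wild type against 97.6 FPKM in JunB cKO. Krtap4-7, which lies between Krtap4-2 and Krtap4-6, was at -1.20. The neighbouring genes Krtap4-8, Krtap4-9, Krtap4-13 and Krtap4-16 were between -2.56 and -1.59. Among them, Krtap4-9 was at 91.0 FPKM in wild type compared to 26.3 FPKM in JunB cKO, and Krtap4-8 was at 57.0 and 16.4 FPKM. Krtap4-13 was at 8.78 FPKM in wild type against 0.657 FPKM in JunB cKO, with 70.9% of its stretches shared. Krtap4-16, which shares no stretch of 75 bases, was at 101.4 and 33.1 FPKM, a difference of -1.59. Krtap1-3, another member with no shared stretch, was at 123.9 FPKM in wild type compared to 27.6 FPKM in JunB cKO, a difference of -2.13. Low genes of the same region, Krtap31-1, Krtap31-2 and Krtap9-5, had differences of -1.52, -1.24 and -1.51.

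The remaining subfamilies were small. The 3 Krtap9 genes had a median difference of -0.84 between -1.51 and -0.63, and both Krtap16 genes were below wild type, with Krtap16-1 at -0.88 and Krtap16-3 at -0.35. Both Krtap28 genes, of chromosome 1, were near wild type with -0.30 and -0.19. Of subfamilies with 1 gene, Krtap10-4, Krtap11-1 and Krtap27-1 were lower by 2-fold, with -1.20, -1.05 and -1.35, beside Krtap14 and Krtap15 above. Krtap2-4, Krtap12-1, Krtap21-1, Krtap24-1, Krtap26-1 and Krtap29-1 lay between -0.95 for Krtap26-1 and -0.17 for Krtap2-4. Krtap13 was listed at 0 in wild type but was at 0.296 FPKM in JunB cKO, below 1 FPKM in both.

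Within chromosome 16 the classes could be compared next to each other. The 15 high glycine-tyrosine genes there had a median difference of -0.43 with 0 lower by 2-fold, and the 9 others had a median of -1.05 with 5 lower, namely Krtap11-1, Krtap13-1, Krtap14, Krtap15 and Krtap27-1. Relative to the median difference of the hair keratins, -0.64, 31 of all 57 members were above and 26 below. By class, 16 of 19 high glycine-tyrosine genes were above that median, compared to 8 of 21 high sulfur and 6 of 16 ultra-high sulfur genes. Restriction to the 23 members without a shared stretch left 7 lower and 1 higher.

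**Figure D2:**
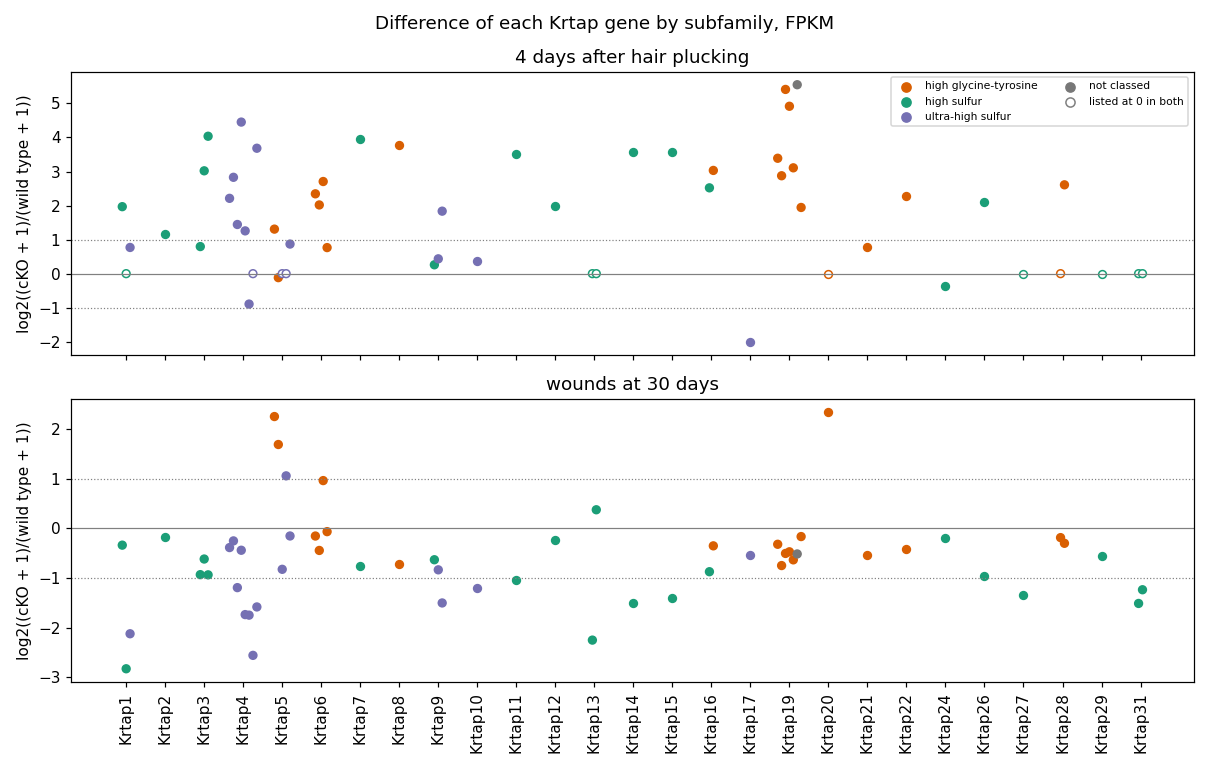
Difference of each Krtap gene on the log2 scale, by subfamily and coloured by protein class, after plucking (top) and in wounds (bottom), with dotted lines at 2-fold. After plucking most points lie above 0 and 12 open points are genes listed at 0 in both genotypes, whereas in wounds most points lie below 0 and those of the Krtap4 genes reach from -0.25 to -2.56.

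In skin plucked 4 days earlier the direction was the opposite one. The Krtap values summed to 147.5 FPKM in wild type against 1034 FPKM in JunB cKO, a low level compared to wounds. Of the 57 members, 41 were above wild type and 4 below, and 12 were listed at 0 in both genotypes. By the 2-fold limit 33 were higher and 1 was lower, with a median difference of 1.84. Of all loci after plucking, 6.5% were higher and 5.65% were lower, and among loci with at least 1 FPKM in either genotype these shares were 18.4% and 16%. Of the members 40 reached 1 FPKM. In wild type 30 members were listed at 0, compared to 14 in JunB cKO. A difference from a wild type value of 0 depends on the 1 FPKM that is added and gives no fold.

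All 7 Krtap19 genes were counted as higher, 4 of them from a wild type value of 0, with a median difference of 3.39. Krtap19-5 was at 18.0 FPKM in wild type against 163.3 FPKM in JunB cKO, a difference of 3.11, and Krtap19-1 was at 4.83 and 60.1 FPKM, a difference of 3.39. Krtap19-9a, Krtap19-3 and Krtap19-4 were listed at 0 in wild type but were at 45.8, 41.6 and 29.2 FPKM in JunB cKO. Among the other high glycine-tyrosine genes, Krtap22-2 was at 10.9 FPKM in wild type compared to 56.8 FPKM in JunB cKO, Krtap8-1 at 3.08 and 55.5 FPKM, and Krtap6-3 at 6.05 and 45.1 FPKM. The high glycine-tyrosine genes made up 61.7% of the summed FPKM in wild type against 59.9% in JunB cKO. In total 14 of the 19 were higher by at least 2-fold and 0 were lower. Krtap6-2 and Krtap21-1, at 16.1 and 9.75 FPKM in wild type against 28.1 and 17.3 FPKM in JunB cKO, had the same difference of 0.77. Krtap20-2 was listed at 0 in both genotypes.

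Of the high sulfur genes 11 of 21 were higher and 0 were lower, with 7 listed at 0 in both genotypes. Krtap7-1 was at 3.80 FPKM in wild type against 73.9 FPKM in JunB cKO, a difference of 3.96. Krtap1-5 was at 15.2 and 62.6 FPKM, a difference of 1.97, and Krtap3-1 was listed at 0 in wild type but was at 15.4 FPKM in JunB cKO. Krtap2-4 was at 2.25 and 6.31 FPKM. Krtap9-3, which had 6.92 FPKM in wild type, had 8.49 FPKM in JunB cKO, a difference of 0.26. The genes of this class with the largest wound differences, Krtap1-4 and Krtap13-1, were listed at 0 in both genotypes after plucking.

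Of the 16 ultra-high sulfur genes 7 were higher and 1 was lower. Krtap4-6 was listed at 0 in wild type but was at 20.9 FPKM in JunB cKO, and Krtap4-7 was at 2.97 and 9.81 FPKM, a difference of 1.44. Krtap17-1, a single-gene subfamily at the end of the chromosome 11 cluster, was at 7.44 FPKM in wild type compared to 1.11 FPKM in JunB cKO. Its difference of -2.001 was the only one of a member past 2-fold in that direction, and it shares no stretch of 75 bases with another annotated gene. In wounds Krtap17-1 was at 54.6 and 37.1 FPKM, a difference of -0.55.

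By subfamily, the differences after plucking spread as follows. Of the 8 Krtap4 genes 6 were higher, with a median of 1.83, and the range ran from -0.89 for Krtap4-9 to 4.45 for Krtap4-6. Of the 3 Krtap3 genes 2 were higher with a median of 3.02, of the 3 Krtap1 genes 1 was higher with a median of 0.77, and of the 4 Krtap6 genes 3 were higher with a median of 2.18. Of the 3 Krtap9 genes 1 was higher with a median of 0.44. The Krtap5 genes were close to 0, with a sum of 0.0845 FPKM in wild type against 2.30 FPKM in JunB cKO, and 1 of 5, Krtap5-2, was higher. Both Krtap16 genes were listed at 0 in wild type but were at 4.74 and 7.18 FPKM in JunB cKO, and so were Krtap28-13, Krtap26-1 and Krtap12-1, at 5.10, 3.32 and 2.97 FPKM, and Krtap14, at 10.9 FPKM. Krtap10-4 was listed at 0 in wild type but was at 0.299 FPKM in JunB cKO. Krtap24-1 was below wild type, at 0.850 and 0.453 FPKM. The Krtap13, Krtap27, Krtap29 and Krtap31 genes were listed at 0 in both genotypes.

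**Figure D3:**
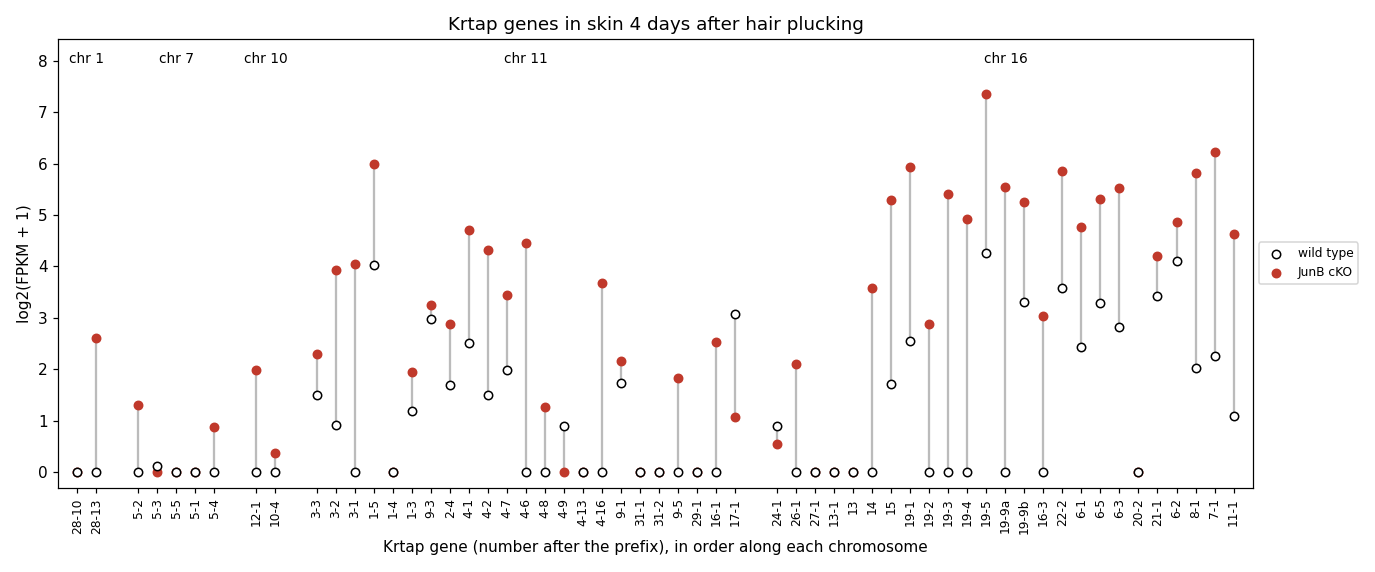
Level of each Krtap gene 4 days after hair plucking as log2(FPKM + 1), wild type as open circles and JunB cKO as filled circles, in order along each chromosome. Filled circles lie above open ones for 41 of 57 genes, on chromosomes 16 and 11 in particular. Krtap17-1, at 7.44 against 1.11 FPKM, is the only gene lower by at least 2-fold.

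Many other genes of the growing hair, but not all, were also higher in JunB cKO after plucking. Of 15 listed hair keratins 10 were higher and 2 were lower by at least 2-fold, with a sum of 33.4 FPKM in wild type against 125.5 FPKM in JunB cKO. Krt34 was at 1.04 and 19.0 FPKM, Krt81 at 2.11 and 16.9 FPKM and Krt83 at 0.0723 and 13.7 FPKM, and Krt33a was listed at 0 in wild type but was at 30.9 FPKM in JunB cKO. By contrast, the 2 lower ones, Krt84 and Krt36, had the highest wild type values of the list, at 10.3 and 10.2 FPKM. In JunB cKO, Krt84 was at 0.0655 FPKM and Krt36 was listed at 0. All 9 genes of the inner root sheath, the layer that encloses the growing shaft, were higher, for example Tchh at 22.3 and 240.8 FPKM and Krt71 at 26.1 and 168.0 FPKM. Of the other hair shaft proteins 2 of 4 were higher, with Gprc5d listed at 0 and at 18.4 FPKM and Padi3 at 0.704 and 5.65 FPKM. Transcription factors of the hair shaft went in both directions, with 7 above and 3 below wild type and a median difference of 0.13. Of 10 listed, 2 were higher, Lef1 at 1.46 and 6.94 FPKM and Foxn1 at 0.0814 and 2.11 FPKM. Foxq1 was the 1 lower, at 3.37 and 0.167 FPKM. The most abundant, Vdr and Cux1, were at 48.0 and 44.4 FPKM in wild type against 43.1 and 46.1 FPKM in JunB cKO. The ratio of summed Krtap to summed hair keratin FPKM was 4.42 in wild type against 8.24 in JunB cKO. Krt84 and Krt36 make up much of the wild type hair keratin sum, so that the lower wild type ratio depends on these 2 genes. It was not computed without them. Relative to the median hair keratin difference of 1.80, 29 of 45 members that were not at 0 in both genotypes were above it and 16 below.

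Markers of other skin cells moved with the genotype after plucking, too. All 4 fibroblast markers were below wild type and 3 were lower by 2-fold, with a sum of 5007 FPKM in wild type compared to 1782 FPKM in JunB cKO, and Col1a1 was at 1168 and 526.9 FPKM. All 3 leukocyte markers were lower, for example Lyz2 at 136.2 and 51.5 FPKM and Cd68 at 34.9 and 6.23 FPKM, and so were both skeletal muscle markers, Ckm at 21.7 and 2.15 FPKM and Myh4 at 16.2 and 2.43 FPKM. Of 3 adipocyte markers 1 was lower, with Fabp4 at 125.4 and 27.4 FPKM and Adipoq at 8.76 and 17.4 FPKM. Epidermal keratinocyte markers had a median difference of 0.54 with 0 of 7 past 2-fold, and Krt10 was at 2004 and 3685 FPKM and Krt14 at 2446 and 1709 FPKM. Melanocyte markers, of cells that color the growing shaft, were at 28.5 and 49.2 FPKM in sum. Of 4, 3 were above wild type and 2 were higher by 2-fold, with Dct at 18.9 and 27.8 FPKM and Pmel at 1.60 and 9.27 FPKM, whereas Tyrp1 was at 7.63 and 7.003 FPKM. The dividing cell markers Mki67 and Top2a were at 35.02 and 34.9 FPKM in wild type against 61.0 and 57.7 FPKM in JunB cKO. Relative to the median of the epidermal keratinocyte markers, 29 of 45 members were higher and 2 lower by 2-fold, and relative to that of the hair keratins 17 were higher and 11 lower. The part of tissue composition in the Krtap values was not tested.

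In wounds these lists took another course. Of 15 hair keratins 14 were below wild type and 2 were lower by 2-fold, and the 4 most abundant, Krt33a, Krt81, Krt34 and Krt83, had differences of -0.70, -0.64, -0.64 and -0.64. All 9 inner root sheath genes were below wild type, 3 of them by 2-fold, for example Tchh at 1945 and 881.8 FPKM and Krt71 at 1623 and 1197 FPKM. The 4 other hair shaft proteins were below wild type, with Gprc5d at 233.7 and 141.5 FPKM and Dsg4 at 63.5 and 32.3 FPKM, and of 10 transcription factors none passed 2-fold, Cux1 being at 78.2 and 68.5 FPKM and Egr2 at 26.6 and 24.8 FPKM. The summed Krtap values were 7.77 times the hair keratin sum in wild type against 8.24 times in JunB cKO. Epidermal keratinocyte markers, 1 of 7 of which was lower by 2-fold, summed to 2992 FPKM in wild type against 4007 FPKM in JunB cKO, with Krt10 at 1141 and 1770 FPKM and Krt14 at 694.2 and 967.5 FPKM, and fibroblast markers to 10306 and 13192 FPKM, with Col1a1 at 2506 and 2673 FPKM. All 4 melanocyte markers were below wild type and 2 of them by 2-fold, with a sum of 183.1 and 86.3 FPKM, Tyrp1 at 66.1 and 27.1 FPKM and Dct at 63.3 and 35.2 FPKM. Mki67 and Top2a were at 46.0 and 55.9 FPKM in wild type against 35.4 and 36.2 FPKM in JunB cKO. Adipocyte markers (Fabp4 at 581.0 and 596.6 FPKM, Adipoq at 58.4 and 116.4 FPKM), skeletal muscle markers (Ckm at 424.6 and 631.7 FPKM, Myh4 at 252.8 and 279.4 FPKM) and leukocyte markers (Lyz2 at 311.0 and 305.0 FPKM, Ptprc at 35.2 and 42.5 FPKM) did not pass 2-fold in either direction. The part of these markers in the Krtap values was not tested.

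Gene by gene, the differences after plucking and in wounds were set side by side. Of 57 members 39 were above wild type after plucking and below it in wounds, whereas 2 were above and 3 below in both. The pair above in both were Krtap5-2 and Krtap6-3, with 1.31 and 2.71 after plucking and 2.25 and 0.96 in wounds, named after their values were seen. The signed differences of both conditions had a Spearman correlation of 0.014 over all 57 members, of which 12 were listed at 0 in both genotypes after plucking, and of -0.083 over the 40 members that reached 1 FPKM after plucking. By contrast, the levels in plucked JunB cKO skin and in wild type wounds had a similar order, with a Spearman correlation of 0.873 over 57 members. These correlations are across genes that share their libraries, transcript lengths and base composition. Krtap4-7, Krtap4-8, Krtap4-16, Krtap9-5, Krtap14, Krtap15 and Krtap11-1 were counted as higher after plucking and as lower in wounds by the 2-fold limit. Of them, Krtap4-8, Krtap4-16, Krtap9-5 and Krtap14 were listed at 0 in wild type after plucking, so that no fold can be given there. These 7 are 12.3% of all members, 21.2% of the 33 higher and 43.8% of the 16 lower members. Of all members, 28.1% were lower in wounds, so that members higher after plucking were not lower in wounds more often than members at large. Over the 45958 single symbols in both tables, 0.339% had both calls. These were 5.3% of the symbols higher after plucking and 17.3% of those lower in wounds. Among these 7, Krtap15 was at 2.26 and 38.1 FPKM after plucking, a difference of 3.58, and Krtap11-1 was at 1.14 and 23.7 FPKM, a difference of 3.53, compared to 355.0 and 171.0 FPKM in wounds. No gene was lower after plucking and higher in wounds by these limits.

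**Figure D4:**
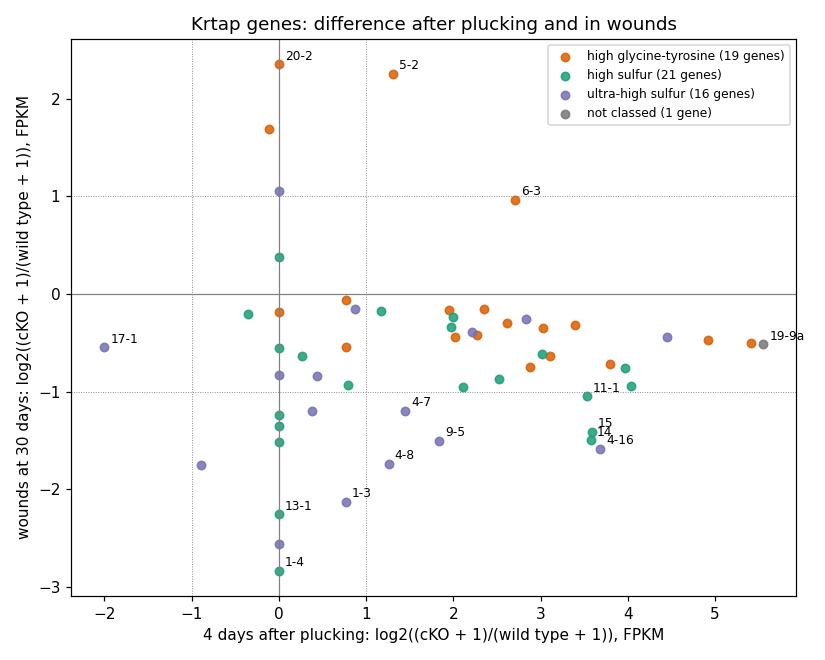
Difference of each of 57 Krtap genes after plucking (x axis) against that in wounds (y axis), both as log2((JunB cKO + 1)/(wild type + 1)) of FPKM and coloured by protein class. The lower right holds 39 genes, and the numbered genes include the 7 that pass 2-fold in opposite directions.

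In the unperturbed libraries Krtap transcripts were low. They summed to 19.995 FPKM in wild type compared to 60.3 FPKM in JunB cKO, and 16 of 54 members reached 1 FPKM in either genotype. Members were above wild type in 42 cases and below in 6, with 9 higher by 2-fold, 0 lower and a median difference of 0.50. The sums and counts include the 216-base locus described below, which was among the higher ones. It was listed at 0 in wild type but was at 10.2 FPKM in JunB cKO. Of all unperturbed loci, 9.31% were higher and 0.858% were lower, and among loci with at least 1 FPKM these shares were 15.4% and 1.42%. These counts depended on the FPKM added before taking the log, as 33 members were higher by 2-fold with 0.1 FPKM in place of 1. By class, 5 of 17 high glycine-tyrosine, 2 of 19 high sulfur and 1 of 17 ultra-high sulfur genes were higher. Genes for odorant, vomeronasal and bitter taste receptors, which skin has little of, behaved alike. Of these 1453 genes 85.9% were above wild type and 24.1% were higher by 2-fold, with a median of 0 FPKM in wild type against 0.543 FPKM in JunB cKO. In estimated reads, the Krtap members with an annotated transcript summed to 203 in wild type against 165 in JunB cKO, with a median of 1.37 and 2.35 reads per member. Krtap8-1, Krtap7-1, Krtap11-1 and Krtap3-2 held 120 of these reads in wild type against 41.6 in JunB cKO, and the other members 83.3 against 124. None of these reads is scaled to depth, and 1 FPKM per kilobase stood for about 13.3 reads in wild type but 3.92 in JunB cKO. They show how few reads lie behind the values and give no difference between genotypes.

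Krtap8-1, the most abundant member in unperturbed wild type, was at 5.63 FPKM in wild type compared to 4.24 FPKM in JunB cKO. Krtap7-1 was at 2.67 and 4.30 FPKM, Krtap11-1 at 2.12 and 1.99 FPKM and Krtap3-2 at 1.92 and 3.38 FPKM. These genes, the only ones above 1.5 FPKM in wild type, stayed within 2-fold. Krtap6-5, at 0.288 FPKM in wild type against 2.93 FPKM in JunB cKO, Krtap19-5, at 0.210 and 2.14 FPKM, and Krtap4-1, at 0.511 and 1.98 FPKM, completed the highest values. A locus that the unperturbed table names Krtap6-3 was listed at 0 in wild type but was at 10.2 FPKM in JunB cKO. It spans 216 bases at chr16:89092134-89092349, where the annotation has no gene, and it was kept apart from the annotated Krtap6-3 at chr16:89084015-89084534. Hair keratins had 0 of 14 past 2-fold in either direction, with sums of 17.8 and 17.6 FPKM and Krt32, Krt35, Krt31 and Krt33a at 8.52, 3.62, 1.54 and 1.36 FPKM in wild type against 7.22, 2.51, 1.60 and 0.814 FPKM in JunB cKO. Past 2-fold in the other lists were 2 of 7 epidermal keratinocyte markers, 1 of 11 transcription factors and 1 of 3 adipocyte markers, all higher. S100a3 was at 7.63 and 10.98 FPKM and Tgm3 at 4.69 and 4.51 FPKM, and the transcription factors Gata3 and Vdr were at 142.4 and 131.2 FPKM and at 55.9 and 48.0 FPKM. Krt5, of basal keratinocytes, was at 2592 and 2690 FPKM. Mki67 and Top2a were at 20.5 and 17.7 FPKM in wild type against 24.9 and 19.2 FPKM in JunB cKO. The melanocyte markers Dct and Tyrp1 were at 8.40 and 3.33 FPKM in wild type against 6.71 and 2.71 FPKM in JunB cKO, and the fibroblast, adipocyte, muscle and leukocyte markers were all below 5 FPKM. Of 8 inner root sheath genes none passed 2-fold, Krt25 being at 15.0 and 11.8 FPKM and Krt71 at 13.4 and 7.52 FPKM.

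**Figure D5:**
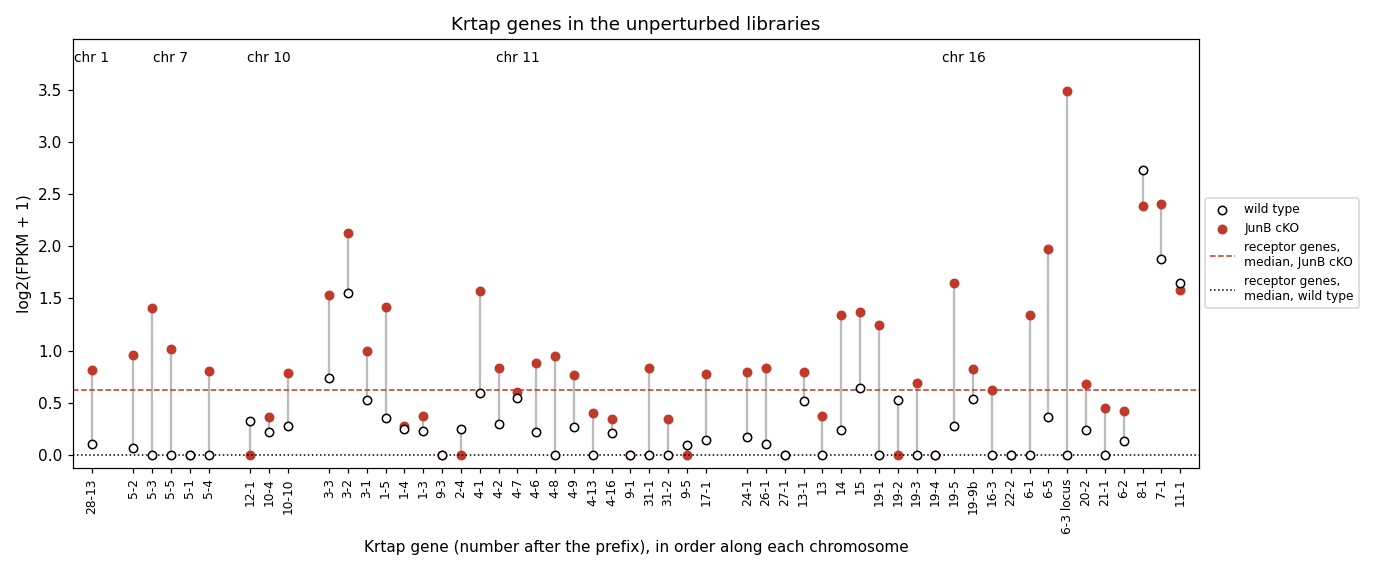
Level of each Krtap gene in the unperturbed libraries as log2(FPKM + 1), wild type as open circles and JunB cKO as filled circles, with lines at the median of the receptor genes of each genotype, 0 FPKM in wild type compared to 0.543 FPKM in JunB cKO. Many filled circles lie near the JunB cKO receptor line, and the highest point is the 216-base locus named Krtap6-3 at 10.2 FPKM.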

How the data were processed

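RNA-seq was analysed from 3 tables of gene loci. The FPKM values were calculated by the authors, who pooled RNA of several samples per group, depleted rRNA, prepared stranded libraries, sequenced single reads of 75 bases, aligned them with TopHat or HISAT2 to GRCm38 and assembled and compared loci with Cufflinks and Cuffdiff. The deposited tables also hold the authors' log2 fold changes, p-values and q-values, which were not used. The column names inside the tables give the genotype, and the condition of the plucked and wound tables is given by the names of the tables. Both wound libraries of a genotype stand behind 1 value. The total depth is not given in the tables, the reads behind a value were estimated roughly from receptor genes with a locus of 900 to 1000 bases, and short transcripts make this estimate uncertain.

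Members were matched between tables by position, because 8 carry another symbol in the unperturbed table, and 52 were matched in all 3 tables. Where a symbol had several loci, that with the largest summed FPKM was used. Differences are log2((JunB cKO + 1)/(wild type + 1)) with a limit of 2-fold. This scale understates the differences of low genes. Members, the 11 gene lists and the protein limits were chosen with earlier results of these data known. Protein composition was computed from the coding sequences of GENCODE release M21, since a protein table was not used here, in place of the planned RefSeq proteins. Named members are, per table, the 8 most abundant and, among those with at least 5 FPKM, the 6 with the highest and 6 with the lowest difference. Of the hair keratins the 4 and of the other lists the 2 most abundant genes are named, and further members are named as examples of a subfamily, chosen after their values were seen. Krt84, Krt36, Lef1, Foxn1 and Foxq1 after plucking were also named after their values were seen. Alternatives were pseudocounts of 0.1 and 0.01, minimum values, centring, summed loci, subtraction of the receptor median, members without shared stretches of 75 bases and limits of 1.5-fold and 4-fold. Those that centre on a gene list or ask for 5 FPKM were chosen after seeing the data. The calculation was tested on simulated data with 4-fold changes set only in loci of at least 5 FPKM in wild type. Calls from lower wild type values or from 0 were therefore not covered. Versions were Python 3.11.15, pandas 2.3.3, numpy 2.4.6 and, for plots, matplotlib 3.10.9.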

Additional observations from a re-analysis of the deposited data

Results flagged for a closer look

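The direction of the Krtap genes differed between conditions. After hair plucking 41 of 57 members were above wild type in JunB cKO, whereas in wounds 51 of 57 were below. Over all 45958 single symbols in both tables, which include many genes at 0, 21.5% were above wild type after plucking and 29% were below it in wounds. Of the members, 7 were counted as higher after plucking and as lower in wounds, in part from wild type values of 0 after plucking. They are 12.3% of all members, compared to 0.339% of all single symbols with both calls. They are also 21.2% of the 33 higher members, whereas 28.1% of all members were lower in wounds. With 1 value per genotype in each table, this difference between conditions was not tested.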

How the results depend on the processing

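No paired analysis was possible because each table holds 1 value per genotype. For the same reason the planned wound values without 1 library were not run. After plucking, 33 members were higher, 1 was lower and the median was 1.84. Without members that share a stretch of 75 bases, 16 of 23 were higher. Centring on the hair keratins left 17 higher and 11 lower of 45 with a median of 0.42, and centring on the keratinocyte markers gave 2 lower. Pseudocounts of 0.1 and 0.01 gave 2 and 3 lower, the 1.5-fold limit gave 2 lower, and a minimum of 5 FPKM gave a median of 2.88. In wounds, where 4 were higher, 16 lower and the median was -0.55, members without shared stretches gave 1 higher and 7 lower of 23. The 4-fold limit gave 2 higher and 4 lower, and the 1.5-fold limit gave 28 lower. Centring on the hair keratins, whose own median was -0.64, left 6 lower and reversed the median to 0.082. In the unperturbed pair, where 9 were higher, 0 lower and the median was 0.50, pseudocounts of 0.1 and 0.01 gave 33 and 33 higher, 3 and 4 lower and medians of 1.39 and 1.71. Subtraction of the receptor median left 4 higher and a median of 0, members without shared stretches gave 2 higher and a median of 0.28, and a minimum of 1 FPKM gave a median of 1.04. Centring on the keratinocyte markers gave 2 higher, 1 lower and a median of 0.046, and limits of 1.5-fold and 4-fold gave 23 and 1 higher. Apart from the construction of each alternative, the cause of these changes was not tested. Other alternatives stayed within 1.5 times of each count and median. Few estimated reads limit the unperturbed pair, with a median of 1.37 and 2.35 per member, and plucked wild type, with a median of 0. Whether low depth or low expression lies behind this was not tested.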
